A study of Bos taurus with 30 samples.

Results

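The genes described here are the cell adhesion and basement membrane genes of bovine endometrium: integrins, laminins, type IV collagens, nidogens, cadherins, protocadherins and claudins. The rule takes every probe with a single symbol of these families and uses no measured value, though the families were picked with earlier results of these data known. The rule found 49 probes of 13824 on the array, for 48 genes of 8073, and all 49 were measured and tested. The members were 12 probes of integrin alpha subunits, 6 of integrin beta subunits, 7 of laminin chains, 5 of type IV collagen chains, 2 of nidogens, 8 of cadherins, 2 of protocadherins and 7 of claudins. ITGA3 was the only gene with 2 probes.

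The study used cows (Bos taurus) pregnant by 3 routes. There were 5 cows carrying pregnancies from somatic cell nuclear transfer (SCNT, cloned embryos), 5 with pregnancies from in vitro fertilisation and embryo transfer (IVF-ET) and 5 with pregnancies from artificial insemination (AI). From each cow, RNA of the caruncles was hybridised against RNA of the intercaruncular endometrium of the same cow on 2 arrays with 2 colours, giving 30 arrays. The day of pregnancy, the breed and the age of the cows are not given in the labels. Each array gives, for a probe, the log ratio of the endometrial regions, taken here as log2, and not a level in either region. The comparison therefore asks which genes differ between caruncle and intercaruncle, and whether that difference depends on how the pregnancy began.

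Caruncles are the raised, gland-free areas of the ruminant uterine wall to which the placental cotyledons attach, and the intercaruncular endometrium between them holds the uterine glands. Laminins and type IV collagens form the 2 networks of the basement membrane under epithelia and around vessels and muscle cells, and nidogens bind both networks. Integrins are cell surface receptors of 1 alpha and 1 beta subunit that hold cells to this matrix or, in leukocytes, to other cells. Cadherins join neighbouring cells in adherens junctions, and claudins seal the space between epithelial or endothelial cells in tight junctions.

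Before the results, 4 features of these arrays bear on every value. The sign of the ratio has no settled tissue: values are given as lying on the positive or the negative side, and which region is on top is not known. The mean of the AI animals lay opposite to the means of the other groups. Over the 49 member probes, it correlated at r = -0.56 with the SCNT mean and at r = -0.55 with the IVF-ET mean. SCNT and IVF-ET correlated at r = 0.53. Over all probes these correlations were -0.29, -0.27 and 0.45. Single AI arrays were mixed: their correlation with the SCNT mean ran from -0.50 in replicate 4 to 0.44 in replicate 1. In AI replicate 5 it was 0.16 and 0.13. These are descriptions over probes of shared arrays. Every difference that uses AI is therefore also given with the AI sign turned. IVF-ET replicate 3 was left out, because the labels give its arrays the same dye orientation, and they correlated at r = -0.32. All calls of LAMA4 and CDH1 given below were lost with this animal included and the second of its arrays turned. With the first turned instead, LAMA4 passed in SCNT animals, over SCNT and IVF-ET animals jointly and in SCNT minus AI (limma adjusted p = 0.0308, 0.00485 and 0.0160). CDH1 passed over both groups jointly (limma adjusted p = 0.00594). The first and second array correlated with the SCNT mean at r = -0.30 and 0.44. The calls were also lost when the values were read as ratios of the dyes. If the values are already turned to the tissues, that reading cancels a difference shared by the arrays of a cow. SCNT replicate 5 had an SD of 0.70 over all probes, against 0.22 to 0.32 in the other 13 animals. No label explains this spread. Fits without that animal are given below, but it was singled out by its values in these same data. Members that pass only without it are therefore not separately supported. The numbers of spots with a value per array were 26744 to 27643. The 2 arrays of a cow correlated over the members at r between -0.40 and 0.87, with a median of 0.35. The arrays of a group carry adjacent numbers, so group and order of arrays cannot be told apart. In whole tissue, fewer cells of a type and less RNA per cell cannot be told apart either.

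**Figure D1:**
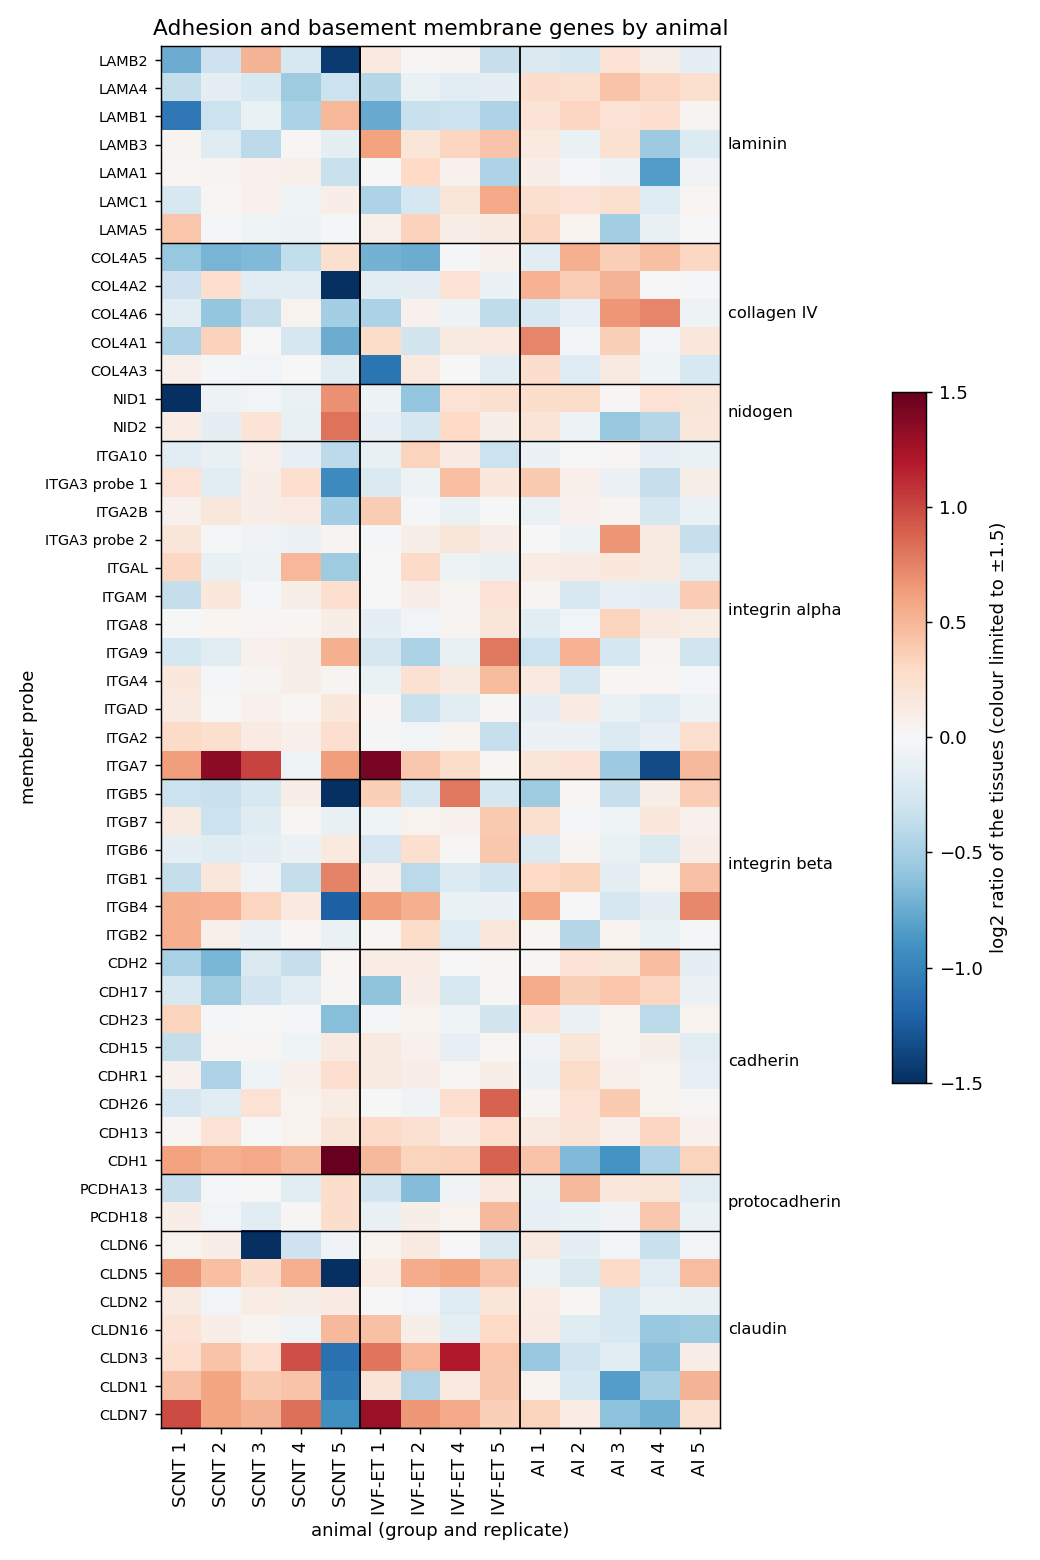
Log2 ratio of the endometrial regions for the 49 member probes (rows, grouped by family) in 14 animals (columns, SCNT left, IVF-ET in the middle, AI right). Colour runs from -1.5 to 1.5, and values beyond are shown at the limit. LAMA4 is on the negative side in all 5 SCNT and 4 IVF-ET animals and on the positive side in the 5 AI animals, and SCNT replicate 5 differs from the other SCNT animals in most claudins.

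Among the laminins, the chain that differed most steadily between the regions was LAMA4, the alpha 4 chain of laminins in the basement membranes of vessels, muscle and stroma. Its log2 ratios were -0.36, -0.13, -0.23, -0.53 and -0.33 in SCNT replicates 1 to 5, and -0.43, -0.10, -0.17 and -0.14 in IVF-ET replicates 1, 2, 4 and 5, against 0.27, 0.24, 0.42, 0.31 and 0.24 in AI replicates 1 to 5. All 9 animals with transferred embryos were below 0 and all 5 AI animals above it, with no overlap. In SCNT animals LAMA4 averaged -0.32 ± 0.15 (SD, n = 5), a 1.25-fold difference between the regions. This passed the test (limma, adjusted p = 0.0403 over 13818 probes), and 1.85% of all probes passed it. It was the single member of 49 called in SCNT animals, a share near that of all probes. Over the joint mean of SCNT and IVF-ET animals the LAMA4 ratio was -0.26 ± 0.06 (SE, limma adjusted p = 0.0160). In IVF-ET animals it was -0.21 ± 0.15 (SD, n = 4, limma adjusted p = 0.534) and in AI animals 0.30 ± 0.08 (SD, n = 5, limma adjusted p = 1.00), neither of which passed. The single arrays were less even than the animal means: both arrays lay on the same side of 0 in 3 of 5 SCNT animals, 3 of 4 IVF-ET animals and 3 of 5 AI animals. The 2 arrays of SCNT replicate 1, for example, gave 0.08 and -0.80. The call in SCNT was lost without any 1 of the 5 SCNT animals, without IVF-ET replicate 2, 4 or 5, and without AI replicate 2 or 4, and the highest adjusted p on leaving out 1 animal of any group was 0.138. It was also lost in a fit of the SCNT animals alone (limma adjusted p = 0.181), and the call over both groups was lost without IVF-ET replicate 1 (limma adjusted p = 0.0831).

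LAMB1, the beta 1 chain that pairs with alpha 4 in vascular laminins, followed LAMA4. Its ratios were -1.07, -0.33, -0.10, -0.48 and 0.50 in SCNT replicates 1 to 5, and -0.76, -0.34, -0.32 and -0.47 in IVF-ET animals, against 0.20, 0.33, 0.22, 0.25 and 0.05 in AI animals. SCNT replicate 5 was the exception, on the positive side, and the IVF-ET and AI animals did not overlap. Both arrays of a cow lay on the same side of 0 in 4 of 5 SCNT, 4 of 4 IVF-ET and 4 of 5 AI animals. The single AI arrays were far less even than the AI animal means, at -1.05 to 1.45. LAMA4 and LAMB1 lay on the same side of 0 in 13 of 14 animals, against a median of 7 of 14 over all pairs of members. For LAMC1, the gamma 1 chain that most laminins share, LAMA4 was on the same side in 8 of 14 animals, and LAMC1 averaged -0.03 ± 0.13, 0.01 ± 0.46 and 0.11 ± 0.19 in SCNT, IVF-ET and AI animals (SD, n = 5, 4 and 5). LAMB1 did not pass the test in SCNT animals (-0.29 ± 0.57, SD, n = 5, limma adjusted p = 0.372). Without SCNT replicate 5 it averaged -0.49 there and passed (limma adjusted p = 0.0495).

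LAMB3, the beta 3 chain of a laminin of epithelia, showed another pattern. Its ratios were 0.05, -0.18, -0.39, 0.01 and -0.13 in SCNT animals and 0.60, 0.19, 0.32 and 0.42 in IVF-ET animals, against 0.14, -0.10, 0.23, -0.55 and -0.20 in AI animals. The IVF-ET animals lay above all SCNT animals. The SCNT ratio was 0.51 ± 0.16 (SE) lower than the IVF-ET ratio, with the smallest p of all members in that difference, yet it did not pass over all probes (limma adjusted p = 0.915). LAMB2, the beta 2 chain found at vessels and neuromuscular junctions, ranged from -1.43 to 0.51 in SCNT animals and averaged -0.44 ± 0.71 (SD, n = 5), with its lowest value in replicate 5. LAMA1 and LAMA5, the alpha 1 chain of early basement membranes and the alpha 5 chain of adult epithelia, had group means between -0.18 and 0.16.

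The type IV collagens all had negative means in SCNT animals, and none passed the test there. COL4A5, the alpha 5 chain, was the most uneven between the regions. Its ratios were -0.57, -0.70, -0.66, -0.37 and 0.24 in SCNT replicates 1 to 5, and -0.71, -0.75, -0.01 and 0.07 in IVF-ET animals, against -0.17, 0.54, 0.36, 0.45 and 0.32 in AI animals. SCNT replicates 1 to 4 lay below all AI animals, and replicate 5 among them. COL4A5 averaged -0.41 ± 0.39 in SCNT animals (SD, n = 5, limma adjusted p = 0.186). Without replicate 5 it averaged -0.57 and passed (limma adjusted p = 0.0414). COL4A1 and COL4A2, the chains of the common collagen IV trimer in nearly all basement membranes, averaged -0.22 ± 0.42 and -0.38 ± 0.67 in SCNT animals, against 0.23 ± 0.32 and 0.27 ± 0.27 in AI animals (SD, n = 5 each). They were on the same side of 0 in 10 of 14 animals. The COL4A2 value of -1.52 in SCNT replicate 5 lay far below the -0.31 to 0.26 of the other SCNT animals. COL4A6, the partner of COL4A5 in the trimer of smooth muscle and some epithelia, averaged -0.31 ± 0.26 in SCNT animals (SD, n = 5, limma adjusted p = 0.321). COL4A3 averaged -0.03 ± 0.08 in SCNT animals (SD, n = 5).

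The nidogens did not differ steadily. NID1, the main linker of laminin and collagen IV networks, had -1.54 in SCNT replicate 1 and 0.69 in SCNT replicate 5, with -0.10 to -0.04 in the other SCNT animals. It was on the positive side in all 5 AI animals, at 0.02 to 0.28, but both arrays lay on the same side of 0 in only 2 of 5. NID2 ranged from -0.14 to 0.81 in SCNT animals, and its highest value was again in replicate 5. Neither nidogen passed in any comparison.

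**Figure D2:**
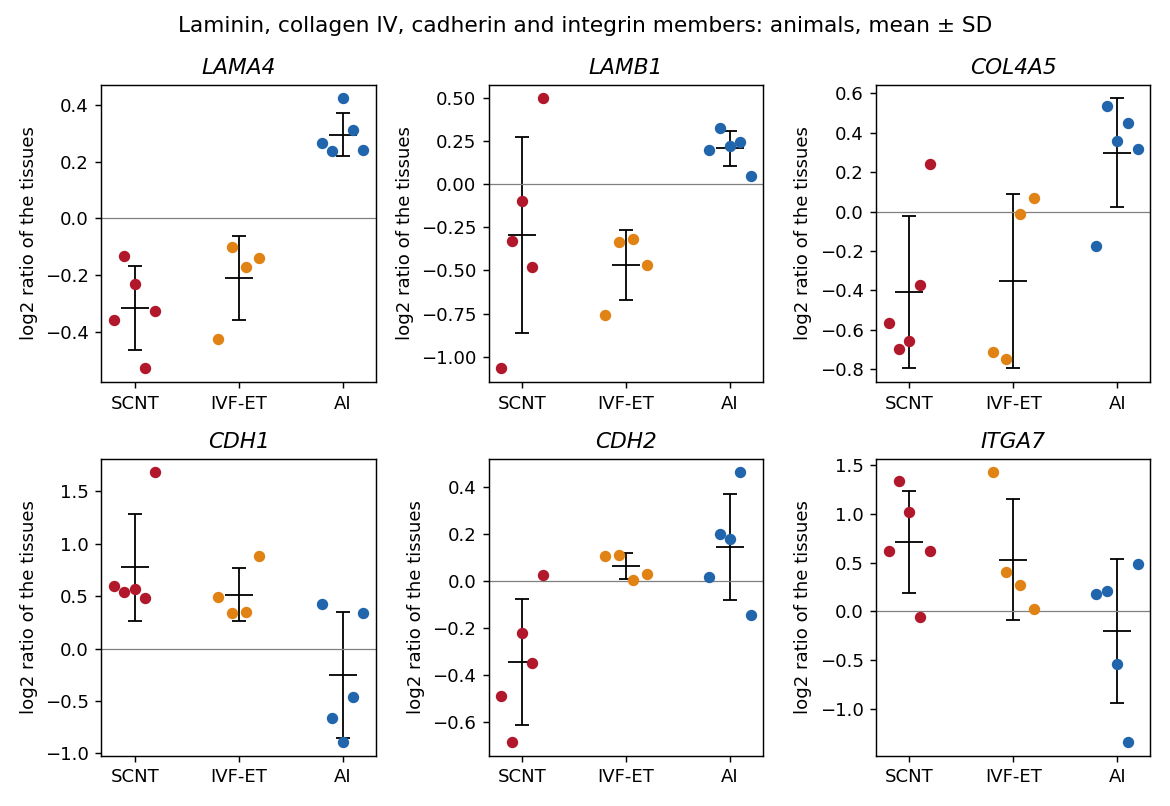
Log2 ratio of the endometrial regions for 6 members by group (SCNT, IVF-ET, AI from left to right); each point is an animal, the bar is the mean and the whiskers are ±1 SD. LAMA4 separates SCNT and IVF-ET animals from AI animals without overlap, whereas LAMB1, COL4A5 and CDH2 have 1 SCNT animal, replicate 5, apart from the other SCNT animals.

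Of the integrins, no subunit passed the test in any of the 7 comparisons. ITGA7, the alpha subunit of the laminin receptor of muscle cells, had the largest mean of the 18 integrin probes in SCNT animals. Its ratios were 0.62, 1.34, 1.02, -0.06 and 0.62 in SCNT animals and 1.43, 0.40, 0.27 and 0.02 in IVF-ET animals, against 0.18, 0.21, -0.54, -1.34 and 0.48 in AI animals. The groups overlapped. ITGA7 averaged 0.71 ± 0.52 in SCNT animals (SD, n = 5, limma adjusted p = 0.163). Over the joint mean of SCNT and IVF-ET animals ITGA7 was 0.62 ± 0.18 (SE, limma adjusted p = 0.0823). It passed there with arrays in the fit and the animal as a random block (limma adjusted p = 0.0279), and without AI replicate 4 (limma adjusted p = 0.0408). With IVF-ET replicate 3 included and its first array turned, ITGA7 passed there too (limma adjusted p = 0.0249). Its 2 arrays often differed with the dye: in IVF-ET replicate 2 they gave -1.08 and 1.88, and the dye effect of this probe, 0.37, was larger than that of 98.5% of probes.

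A pair of matrix receptor subunits gave small positive means in every SCNT animal. ITGA2, the alpha subunit of a collagen receptor, had 0.28, 0.24, 0.12, 0.08 and 0.25 in SCNT animals and -0.02, -0.04, 0.05 and -0.35 in IVF-ET animals, against -0.09, -0.09, -0.20, -0.13 and 0.25 in AI animals. It was above all IVF-ET animals, and its SCNT mean of 0.20 ± 0.09 (SD, n = 5) did not pass over all probes (limma adjusted p = 0.258). ITGA8, which pairs with beta 1 to bind nephronectin and fibronectin, was also above 0 in all SCNT animals, but at 0.00 to 0.10. Their single arrays were less even, since both arrays of a cow lay on the same side of 0 in 3 of 5 SCNT animals for ITGA2 and in 1 of 5 for ITGA8. ITGA4, a fibronectin and VCAM1 receptor of leukocytes and other cells, averaged 0.06 ± 0.07, 0.18 ± 0.24 and -0.01 ± 0.15 in SCNT, IVF-ET and AI animals (SD, n = 5, 4 and 5).

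The probes of ITGA3, the alpha subunit of a laminin receptor of epithelia, disagreed. In SCNT replicate 5 the first gave -0.96 and the second 0.04, and in AI replicate 3 the first gave -0.09 and the second 0.66. No direction is given for that gene. The remaining alpha subunits (ITGA10, ITGA2B, ITGA9, ITGAD, ITGAL and ITGAM) had SCNT means between -0.14 and 0.08.

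Among the beta subunits, ITGB4 and ITGB5 had values in SCNT replicate 5 far from those of the other SCNT animals. ITGB4, which with alpha 6 anchors epithelial cells in hemidesmosomes, had 0.54, 0.52, 0.33 and 0.14 in SCNT replicates 1 to 4 and -1.23 in replicate 5. ITGB5, a subunit of a vitronectin receptor, had -0.32, -0.34, -0.24 and 0.10 in SCNT replicates 1 to 4 and -2.22 in replicate 5. The group means were 0.06 ± 0.74 for ITGB4 and -0.60 ± 0.92 for ITGB5 (SD, n = 5), and each lay between replicate 5 and the other SCNT animals. ITGB1, the beta subunit common to most matrix receptors, averaged 0.03 ± 0.46, -0.21 ± 0.20 and 0.20 ± 0.23 in SCNT, IVF-ET and AI animals (SD, n = 5, 4 and 5). ITGB6, an epithelial subunit, and the leukocyte subunits ITGB2 and ITGB7 had group means between -0.09 and 0.11. The leukocyte pair ITGAL and ITGB2 was on the same side of 0 in 10 of 14 animals and the pair ITGAM and ITGB2 in 8 of 14.

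Among the cadherins, CDH1 (E-cadherin), the adherens junction protein of epithelial cells, was on the positive side in every animal with a transferred embryo. Its ratios were 0.60, 0.54, 0.57, 0.49 and 1.68 in SCNT replicates 1 to 5, and 0.49, 0.34, 0.35 and 0.88 in IVF-ET animals, against 0.42, -0.67, -0.89, -0.46 and 0.34 in AI animals. SCNT animals lay above all AI animals, whereas IVF-ET animals overlapped with them, and SCNT replicate 5 stood apart from the narrow range of the other SCNT animals. All 10 SCNT arrays and 7 of 8 IVF-ET arrays were above 0, against 3 of 10 AI arrays. Over the joint mean of SCNT and IVF-ET animals CDH1 was 0.64 ± 0.14 (SE), or 1.56-fold, and passed the test (limma adjusted p = 0.0210). In that comparison 3.37% of all probes passed, and 2 of 49 members did, CDH1 and LAMA4. In SCNT animals alone CDH1 averaged 0.78 ± 0.51 (SD, n = 5) and missed the threshold (limma adjusted p = 0.0511). The call over both groups was lost without IVF-ET replicate 1 or without IVF-ET replicate 5, with adjusted p of 0.0748 and 0.0753.

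CDH2 (N-cadherin), the cadherin of mesenchymal and neural cells, was negative in most SCNT animals. Its ratios were -0.49, -0.68, -0.22, -0.35 and 0.02 in SCNT replicates 1 to 5, and 0.11, 0.11, 0.00 and 0.03 in IVF-ET animals, against 0.02, 0.20, 0.18, 0.46 and -0.14 in AI animals. SCNT replicates 1 to 4 were below every other animal. CDH2 averaged -0.34 ± 0.27 in SCNT animals (SD, n = 5, limma adjusted p = 0.0885), and without replicate 5 it averaged -0.44 and passed (limma adjusted p = 0.0325). CDH17, a cadherin known from liver and intestine, averaged -0.24 ± 0.20 in SCNT animals and 0.31 ± 0.24 in AI animals (SD, n = 5 each). CDH13 (T-cadherin), which is held in the membrane by a lipid anchor and has no cytoplasmic tail, was above 0 in all 14 animals. Its group means were small, at 0.10, 0.22 and 0.16 in SCNT, IVF-ET and AI animals. Both arrays of a cow lay on the same side of 0 for CDH13 in 4 of 5 SCNT, 3 of 4 IVF-ET and 2 of 5 AI animals. The share of all probes on the same side in all 14 animals is not given here, so this is not read as a result. The other cadherins (CDH15, CDH23, CDH26 and CDHR1) and the protocadherins PCDH18 and PCDHA13 had group means between -0.21 and 0.27, and none passed.

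The claudins split the SCNT animals. CLDN7, an epithelial claudin, had 0.98, 0.60, 0.51, 0.82 and -0.92 in SCNT replicates 1 to 5, and 1.29, 0.65, 0.56 and 0.35 in IVF-ET animals, against 0.33, 0.11, -0.61, -0.71 and 0.22 in AI animals. CLDN3, a sealing claudin of epithelia, had 0.26, 0.43, 0.25, 0.96 and -1.11 in SCNT animals and 0.81, 0.50, 1.20 and 0.41 in IVF-ET animals, against -0.57, -0.29, -0.16, -0.63 and 0.10 in AI animals. For AI replicate 1 the CLDN3 value rests on 1 array. IVF-ET animals lay above all AI animals in both genes, and so did SCNT replicates 1 to 4. SCNT replicate 5 lay below all other animals in both. For CLDN7 the lowest IVF-ET value, 0.35, was close to the highest AI value, 0.33. Its 2 arrays gave 1.25 and -0.58 in AI replicate 1, and -0.22 and 1.34 in IVF-ET replicate 4. The dye effect of the CLDN7 probe, 0.32, was larger than that of 97.3% of probes.

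CLDN5, the claudin of endothelial cells that also occurs in some epithelia, gave the lowest ratio of any member in any animal. It had 0.67, 0.46, 0.26, 0.55 and -3.51 in SCNT replicates 1 to 5, and 0.11, 0.55, 0.59 and 0.43 in IVF-ET animals, against -0.07, -0.22, 0.29, -0.16 and 0.47 in AI animals. Both arrays of SCNT replicate 5 carried this value, at -3.44 and -3.57. CLDN1, another epithelial sealing claudin, had 0.39 to 0.59 in SCNT replicates 1 to 4 and -1.05 in replicate 5. The median over the 7 claudins was 0.26, 0.43, 0.25, 0.43 and -0.92 in SCNT replicates 1 to 5.

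In SCNT animals no claudin passed with that animal in the fit. Without it CLDN7 averaged 0.73 ± 0.17 (SE, limma adjusted p = 0.0349) and CLDN5 0.48 ± 0.12 (SE, limma adjusted p = 0.0432), and both passed. CLDN3, CLDN5 and CLDN7 then also passed over the joint mean of SCNT and IVF-ET animals, at 0.60, 0.45 and 0.72. In IVF-ET animals CLDN3 averaged 0.73 ± 0.36 and CLDN7 0.71 ± 0.41 (SD, n = 4), with limma adjusted p of 0.379 and 0.462. CLDN2, a claudin that forms cation channels, CLDN6, an embryonic claudin, and CLDN16, a claudin of the kidney, did not pass in any comparison. CLDN6 had -1.82 in SCNT replicate 3 and -0.32 to 0.10 in the other SCNT animals.

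**Figure D3:**
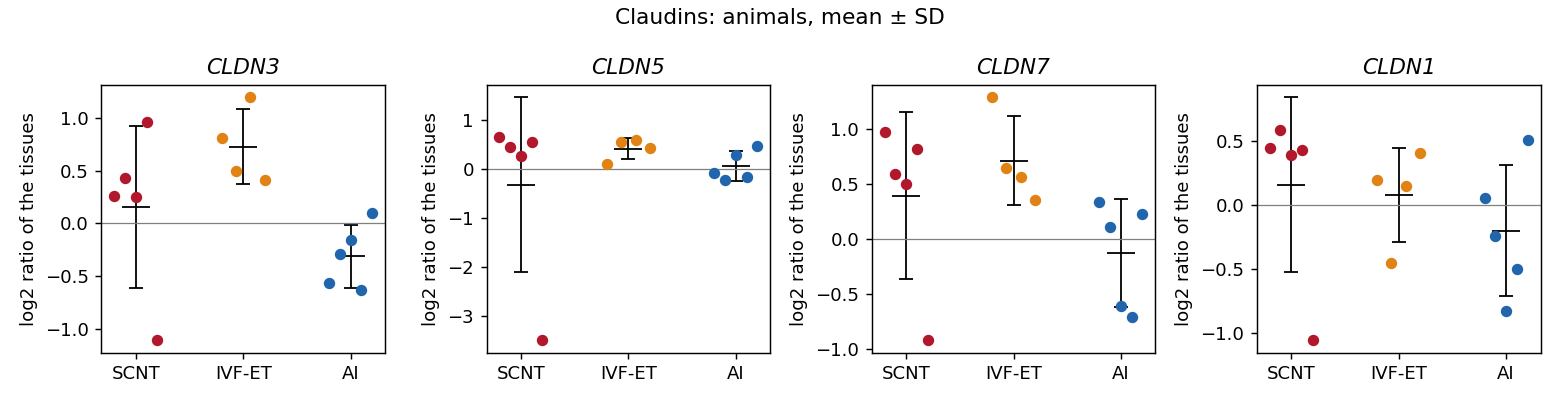
Log2 ratio of the endometrial regions for 4 claudins by group (SCNT, IVF-ET, AI from left to right), with a point per animal, the mean as a bar and ±1 SD as whiskers; the vertical scales differ. SCNT replicate 5 is the low point in each panel, at -3.51 for CLDN5, while the other SCNT animals are above 0.

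SCNT replicate 5 differed from the other SCNT animals beyond the claudins. It lay on the side of 0 opposite to the mean of SCNT replicates 1 to 4 for 28 of 49 members, or 57.1%, against 46.5% of all probes. Ratios larger than 1 in size made up 16.3% of the members in this animal and 9.12% of all probes. The direction was not uniform: CDH1 was higher than in the other SCNT animals, at 1.68, while its fellow epithelial genes CLDN7, CLDN3 and ITGB4 were lower. Its arrays correlated at r = 0.87 over the members, the highest of all animals. Without it, 5 members passed in SCNT animals (CLDN5 and CLDN7 on the positive side, CDH2, COL4A5 and LAMB1 on the negative), where 1.66% of all probes did. LAMA4 then did not (limma adjusted p = 0.0785). Over the joint mean of SCNT and IVF-ET animals 7 members passed without it (CDH1, CLDN3, CLDN5 and CLDN7 positive, COL4A5, LAMA4 and LAMB1 negative), where 5.39% of all probes did.

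**Figure D4:**
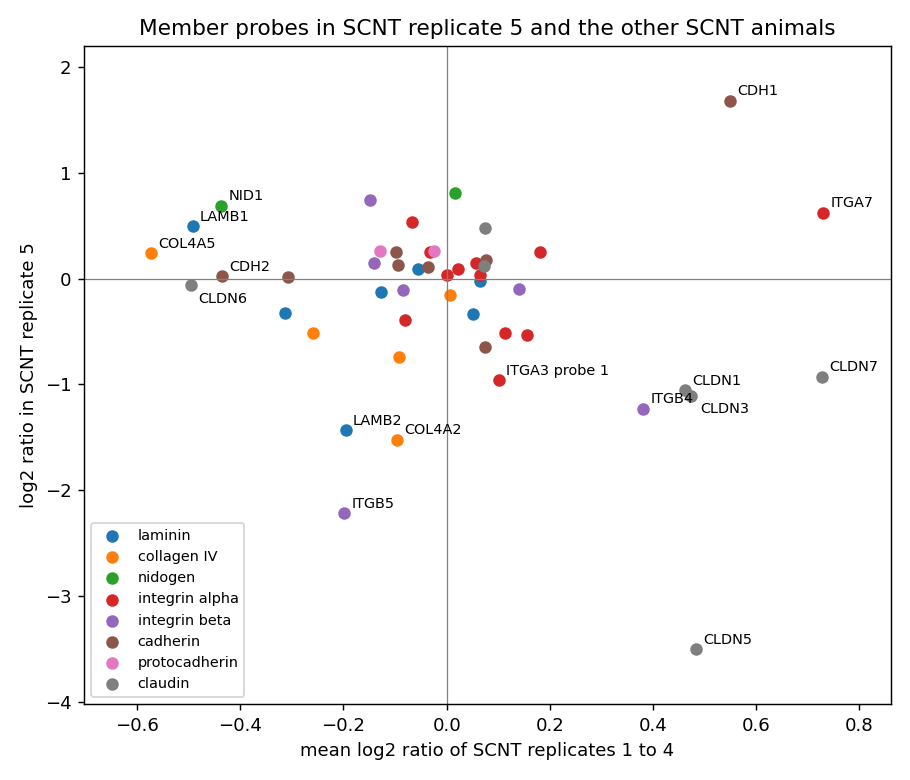
Log2 ratio of each member probe in SCNT replicate 5 (vertical) against the mean of SCNT replicates 1 to 4 (horizontal), coloured by family, with labels for members beyond 0.9 on the vertical or 0.4 on the horizontal axis. CLDN1, CLDN3, CLDN5, CLDN7 and ITGB4 lie at lower right, positive in the other SCNT animals and negative in replicate 5, while CDH1 is positive in both.

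The difference between kinds of pregnancy was tested next. The SCNT ratio of LAMA4 was 0.61 ± 0.11 (SE) lower than the AI ratio on the log2 scale (95% interval -0.84 to -0.39, limma adjusted p = 0.0155), but with the AI sign turned the difference was -0.02 (limma adjusted p = 0.981). LAMA4 was the only member to pass of 49, and 0.97% of all probes passed. The call was lost without AI replicate 3 or AI replicate 4 (limma adjusted p of 0.0648 and 0.0608). For CDH1 the SCNT ratio was 1.03 ± 0.27 (SE) higher than the AI ratio (limma adjusted p = 0.0899), and 0.52 higher with the AI sign turned (limma adjusted p = 0.783). For COL4A5 the SCNT minus AI difference was -0.71 ± 0.21 (SE, limma adjusted p = 0.131), and -0.11 with the AI sign turned. Without SCNT replicate 5, 5 members passed in SCNT minus AI (CDH2, COL4A5, LAMA4 and LAMB1 lower, CLDN3 higher in SCNT), where 1.75% of all probes did. With the AI sign turned none of these 5 passed, with limma adjusted p between 0.778 and 0.996.

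The IVF-ET minus AI difference uses the same AI animals, so its values are not independent of those of SCNT minus AI. It was -0.51 ± 0.11 for LAMA4 (SE, limma adjusted p = 0.152), 1.04 ± 0.31 for CLDN3 (SE, limma adjusted p = 0.314) and -0.68 ± 0.22 for LAMB1 (SE, limma adjusted p = 0.352). With the AI sign turned these were 0.09, 0.42 and -0.26. No member passed in IVF-ET minus AI, where 0.0579% of all probes did. Without SCNT replicate 5, CLDN3 passed there as well, where 0.268% of all probes did, but with the AI sign turned it was at 0.42 and did not (limma adjusted p = 0.847).

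Between SCNT and IVF-ET, a difference that does not rest on the AI sign, no member passed, and 0% of all probes did. Besides LAMB3, the members with an unadjusted p under 0.05 were CDH2 (-0.41 ± 0.15, SE) and ITGA2 (0.29 ± 0.12, SE), each with a limma adjusted p of 0.915. Their 95% intervals, -0.72 to -0.09 and 0.03 to 0.54, are not adjusted for the number of probes tested. Both members were picked by an unadjusted p under 0.05, so these intervals exclude 0 by that choice. They do not show that the groups differ. For LAMA4 the SCNT minus IVF-ET difference was -0.11 (95% interval -0.34 to 0.13), and for CDH1 it was 0.26 (95% interval -0.35 to 0.87), neither past the test.

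**Figure D5:**
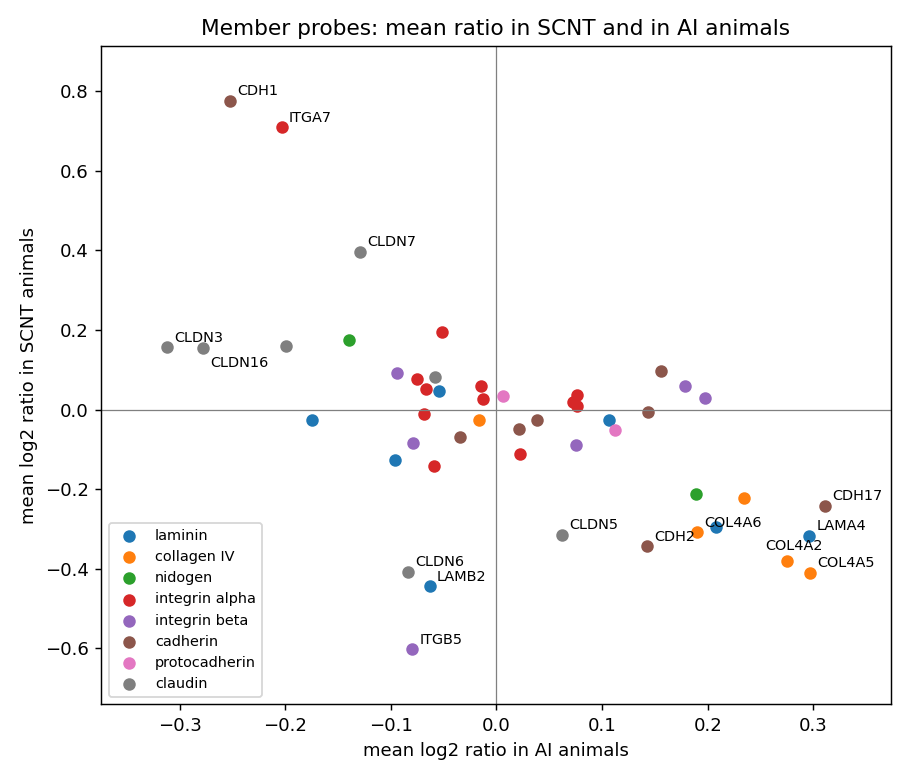
Mean log2 ratio of each member probe in SCNT animals (vertical) and AI animals (horizontal), coloured by family, with labels for members beyond 0.3 on the vertical or 0.25 on the horizontal axis. CDH1, ITGA7 and CLDN7 are at upper left and LAMA4, COL4A2, COL4A5 and CDH17 at lower right, on opposite sides of 0 in the groups, while ITGB5, LAMB2 and CLDN6 are negative in both.

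The counts over the members are set here beside those over all probes. No member passed in IVF-ET or in AI animals alone, where 0% of all probes did. Unadjusted p under 0.05 was found for 11 of 49 members in SCNT animals (22.4%, against 14.8% of all probes), for 7 in IVF-ET animals (14.3%, against 7.94%) and for 4 in AI animals (8.16%, against 4.41%). All SCNT animals were on the same side of 0 in 5 members (10.2%, against 14.4% of all probes), and in 19 members without replicate 5 (38.8%, against 23.6%). All IVF-ET animals were on the same side in 12 members (24.5%, against 21.9%) and all AI animals in 5 (10.2%, against 4.93%). SCNT and AI animals did not overlap in 2 members, CDH1 and LAMA4 (4.08%, against 2.84% of all probes). IVF-ET and AI animals did not overlap in 4, CLDN3, CLDN7, LAMA4 and LAMB1 (8.16%, against 3.32%), and SCNT and IVF-ET animals in 2, ITGA2 and LAMB3 (4.08%, against 2.27%).

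Genes that act with the members were read from 5 fixed lists, whose calls in SCNT animals stand beside the 1.85% of all probes that passed there. Of 15 measured tight junction partners, 2 passed in SCNT animals, both positive: CGN (cingulin), the cytoplasmic linker, at 0.66 ± 0.12 (SE, limma adjusted p = 0.0115) and OCLN (occludin) at 0.52 ± 0.12 (SE, limma adjusted p = 0.0478). CGN also passed in SCNT minus AI at 1.07 (limma adjusted p = 0.0128) and in IVF-ET minus AI at 1.07 (limma adjusted p = 0.0473), but at 0.25 in both with the AI sign turned it did not. The list median in SCNT animals was 0.13, against 0.00 over all probes. Of 16 cadherin partners and desmosome genes, 2 passed in SCNT animals, both positive: DSP (desmoplakin) at 0.63 and PPL (periplakin) at 0.58 (limma adjusted p = 0.0263 and 0.0497), with a list median of 0.12.

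In SCNT animals, the matrix genes and receptors that passed were negative. Of 21 integrin ligands and matrix genes, 2 passed in SCNT animals, TNC (tenascin C) at -0.58 and COL18A1, a basement membrane collagen, at -1.01 (limma adjusted p = 0.0173 and 0.0330), with a list median of -0.10. Of 15 dystroglycan and other basement membrane receptors, SDC2 (syndecan 2) passed at -0.60 (limma adjusted p = 0.0115), with a list median of -0.11. Of 20 integrin adaptors and signalling genes, 0 passed in SCNT animals, with a list median of -0.11. ZYX (zyxin), an adaptor of focal adhesions, passed in SCNT minus AI at -0.76 (limma adjusted p = 0.0301), and not with the AI sign turned (0.09).

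The group medians of the epithelium markers and of the stroma markers lay on opposite sides of 0. In single animals they shared a side in SCNT replicate 5 (-0.27 and -0.56) and AI replicate 1 (0.19 and 0.24). The median of 9 epithelium markers, 2 of them members (CDH1 and CLDN3), was 0.30, 0.55 and -0.18 in SCNT, IVF-ET and AI animals. Of the 9, 0 passed in SCNT animals, and 3 passed over the joint mean of SCNT and IVF-ET animals, where 3.37% of all probes did. Over single animals the epithelium median was 0.38, 0.50, 0.06, 0.50 and -0.27 in SCNT replicates 1 to 5. It was 0.34 to 0.81 in IVF-ET animals and -0.56 to 0.21 in AI animals. Of the SCNT animals, replicate 5 had the lowest epithelium median. The claudin CLDN3, which is in this list, was at -1.11 in that animal, so the list is not separate from the claudins. CDH1, also in the list, was at 1.68 there, the highest of the SCNT animals. The median of 8 stroma markers was -0.85, -0.47 and 0.30 in SCNT, IVF-ET and AI animals, and 4 of the 8 passed on the negative side in SCNT animals (COL3A1, THY1, COL1A2 and COL1A1), the side of LAMA4, where 1.85% of all probes passed. It lay between -0.79 and -0.35 in SCNT animals, between -0.76 and -0.19 in IVF-ET animals and between -0.08 and 0.35 in AI animals. The medians of 5 smooth muscle markers were -0.17, -0.15 and 0.34 in the same order. The part of these markers in the members' results was not tested.

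The medians of the other marker lists were near 0 in each group. The 8 endothelium markers, with the member CLDN5 among them, had medians of 0.00, 0.08 and 0.05 in SCNT, IVF-ET and AI animals, and the 9 leukocyte markers, of which ITGAL, ITGAM and ITGB2 are members, had 0.09, 0.03 and -0.02. The 4 gland markers had 0.07, 0.03 and 0.03, and the 7 trophoblast markers -0.01, -0.07 and -0.08. Single animals and genes lay further out: the gland median ran from -0.47 to 0.67 over animals, SPP1 was at -1.03 in IVF-ET animals and PAG2 at -1.04 in SCNT animals. None of these 4 lists held a gene that passed in SCNT animals. In SCNT replicate 5, where CLDN5 was at -3.51, the endothelium median was 0.00.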

How the data were processed

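Total RNA of caruncular and intercaruncular endometrium was labelled with Cy3 (channel 1) and Cy5 (channel 2), per the labels' protocols. The deposited values are log ratios, taken here as log2; their normalisation by the authors, base and order of channels are not given in the sources used here. RNA integrity numbers were between 7.5 and 9.5, per the labels.

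Each array was centred on its median and 2 adjacent spots were averaged into a probe. The values were taken as already turned to the tissues; each probe's dye effect was taken off and the 2 arrays of a cow were averaged. Cows were the replicates; the labels name the cows, so they are separate animals. Their numbers follow accession order and pair nothing across groups. Genes were named from the platform annotation; the gene IDs of all 49 members were found in the RefSeq table of Bos taurus, and 3 further probes with several symbols were not used. The files state no genome build, and positions are left out.

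limma 3.58.1 in R 4.3.3 (lmFit, eBayes) was fitted to 14 animals and 13818 probes with 7 comparisons, Benjamini-Hochberg adjustment over all probes and a threshold of 0.05; tests were two-sided. The limma tests were run on simulated data with known shifts, independent noise and the same spread in every animal. That run does not cover an animal of wider spread, such as SCNT replicate 5. Scanner intensities were not used here, so the number of arrays limits the precision.

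The members, the 5 lists of partner genes (tight junction, cadherin, integrin ligands, adaptors, basement membrane receptors) and the 7 marker lists (epithelium, gland, stroma, endothelium, smooth muscle, leukocytes, trophoblast) were chosen with earlier results of these data known. Named genes were members past the threshold, those with the smallest p in each family and a fixed set of known members. List genes were named where they passed or were among the smallest p of their list. Other members are named to account for all 49.

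Alternatives were the reading as dye ratios, the AI sign, IVF-ET replicate 3, the filter on missing values, scaling, the dye effect, arrays in the fit, only the groups compared, and leaving out each animal.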

Additional observations from a re-analysis of the deposited data

Results flagged for a closer look

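In 147 groups of 4 or 5 animals, each a member in a kind of pregnancy, 18 held an animal far from the others of its group by Dixon's criterion, where chance flags about 1 in 20. The share flagged over all probes is not given here, so the flags are not read as a result about the members. SCNT replicate 5 had an SD of 0.70 over all probes, against at most 0.32 in the other animals. Of the 18, 9 were in SCNT replicate 5: CDH1 at 1.68, CLDN1 at -1.05, CLDN5 at -3.51, CLDN7 at -0.92, ITGA2B at -0.51, ITGB4 at -1.23, ITGB5 at -2.22, ITGB6 at 0.15 and LAMA1 at -0.34. The other SCNT values were CLDN2 at -0.040 in replicate 2, CLDN6 at -1.82 in replicate 3, and ITGB2 at 0.55 and LAMA5 at 0.41 in replicate 1. COL4A2 stood apart in IVF-ET replicate 4 at 0.22. In AI animals, ITGA2 stood apart in replicate 5 at 0.25, ITGAL in replicate 5 at -0.16, LAMA1 in replicate 4 at -0.84 and PCDH18 in replicate 4 at 0.41.

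Differences between kinds of pregnancy drew attention to 2 laminin chains. LAMA4 differed by -0.61 on the log2 scale in SCNT minus AI (limma adjusted p = 0.0155). In IVF-ET minus AI, all animals of the groups lay on opposite sides of 0 for LAMA4, at -0.51, and for LAMB1, at -0.68, but the limma adjusted p of 0.152 and 0.352 did not pass. Turning the AI sign brings these differences to -0.02, 0.09 and -0.26.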

How the results depend on the processing

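No paired analysis was possible because replicate numbers name different cows in each group. Of 49 members, the number called in SCNT animals was 1 (LAMA4), and it was 0 for values read as dye ratios, 0 with IVF-ET replicate 3 included and the second of its arrays turned, 2 with arrays scaled to 1 spread (CDH1 and LAMA4), 0 with only the SCNT animals in the fit, and 0 to 5 on leaving out 1 animal. With arrays in the fit and the animal as a random block it was 1, CDH1 in place of LAMA4. In IVF-ET animals 0 members were called, and 1 (CLDN3) with only those animals in the fit. In AI animals 0 were called, and 2 (ITGA9 and ITGAD) for values read as dye ratios. Over the joint mean of SCNT and IVF-ET animals 2 were called, against 1 (ITGAD) for dye ratios, 6 and 0 with the first or the second array of IVF-ET replicate 3 turned, 5 with scaled arrays, 7 with arrays in the fit and the animal as a random block, and 0 to 7 on leaving out 1 animal. In SCNT minus AI 1 was called, against 0 for dye ratios, 0 with the AI sign turned, 0 with the second array of IVF-ET replicate 3 turned, 2 with scaled arrays, 2 with the random block, 0 with only those groups in the fit, and 0 to 5 on leaving out 1 animal. In IVF-ET minus AI 0 were called, against 1 (LAMA4) with the first array of IVF-ET replicate 3 turned and 0 to 1 on leaving out 1 animal. SCNT minus IVF-ET had 0 under every alternative run, by limma; 3 members had an unadjusted p under 0.05 there. Read as dye ratios, LAMA4 turned to 0.012 in SCNT animals and 0.17 in SCNT minus AI. The filters on missing values and the dye effect changed no count of members called, but they could hardly do so. No member lacked a value in any animal, so no filter could drop one. The dye effect cancels in the mean of the 2 arrays of a cow where both have a value. These alternatives are therefore no check on the members. Of these alternatives, the share of all probes that passed is given here only for the fit without SCNT replicate 5. A rise in the count of members is therefore not read as a result about the members. The causes were not tested. Signal over background is not known here, so what dim probes can show is not known.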

Other observations

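Further partner genes passed over the joint mean of SCNT and IVF-ET animals, where 3.37% of all probes did. PATJ, a scaffold of the Crumbs polarity complex at tight junctions, was at 0.52 ± 0.11 (SE, limma adjusted p = 0.0184), and CXADR, a junctional adhesion protein of epithelia, at 0.34 ± 0.08 (SE, limma adjusted p = 0.0277). Both were on the positive side, with CGN, OCLN, DSP and PPL. Among the receptors for basement membrane, DDR1, a collagen receptor kinase of epithelia, was at 0.58 ± 0.13 (SE, limma adjusted p = 0.0197). SGCE (epsilon-sarcoglycan), a part of the dystrophin complex, was at -0.28 ± 0.07 (SE, limma adjusted p = 0.0456), on the side of SDC2.

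IVF-ET replicate 3, which entered no comparison, gave opposite values on its arrays for CDH1 and CLDN7. CDH1 was at -1.73 and 1.27, and CLDN7 at -2.03 and 2.08. LAMA4 was at 0.43 and 0.13.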
